A study of Mus musculus with 8 samples.

Results

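The Smad proteins carry signals of the TGF-β family from the cell surface to the nucleus, and the Smurf ubiquitin ligases mark Smads and their receptors for destruction. The genes described here are Smad1, Smad2, Smad3, Smad4, Smad5, Smad6, Smad7, Smurf1 and Smurf2, chosen by symbol. All 9 were found once each among the 22597 genes of the deposited table, and all 9 passed the filter on low counts that left 12750 genes for testing. They were read in polyadenylated RNA of sorted mouse lung interstitial macrophages, cells that lie in the tissue outside the air spaces.

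The Tgfbr2_KO group had 4 libraries, KO1 to KO4, from recipients of marrow of Lyz2Cre Tgfbr2fl/fl donors. The WT group had 4 libraries, WT1 to WT4, from recipients of Tgfbr2fl/fl marrow without Cre. Cre in Lyz2, a gene of macrophages, monocytes and neutrophils, removes the loxP-flanked stretch of Tgfbr2, which encodes the TGF-β type II receptor. All recipients were CD45.1/CD45.2 IMDTR mice, also written Cx3cr1-DTR in the labels, irradiated with the thorax shielded at 18 weeks of age. The labels call the samples female, C57BL/6 and 12 to 16 weeks old, an age that differs from that of the recipients. After 1 month both groups received 50 ng of diphtheria toxin, which kills cells that carry the toxin receptor and so empties the macrophage niche, and cells were sorted 10 days later. How many host macrophages remained is not given, and since Cre was present in the KO donors alone, Cre itself and loss of the receptor cannot be told apart. Whether the libraries are of separate mice is not stated, so the p-values speak of spread between libraries, which may be technical.

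TGF-β binds the type II receptor, which activates the type I receptor Tgfbr1. The active pair phosphorylates Smad2 and Smad3, while receptors for bone morphogenetic proteins (BMPs) phosphorylate Smad1 and Smad5. Both kinds join Smad4 and enter the nucleus, where Smad6 and Smad7 are among the genes they switch on, and the proteins made from these block the pathway. Smad7 also brings Smurf1 and Smurf2 to the receptor. Tissue macrophages depend on TGF-β for parts of their identity, most clearly in the microglia of the brain.

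Gene totals were between 15597310 (WT1) and 37654133 (WT4) counts, and no member had fewer than 85 counts in a library. KO1, WT1 and WT2 held far more transcripts of other lung cells than the other 5 libraries. Of the 15 endothelial markers 14 were higher in each of the 3 than in each of the 5, and their summed level was 5986 CPM (read counts scaled to the TMM-adjusted library size) in KO1 and 4049 and 3111 CPM in WT1 and WT2, against 437.6 to 507 CPM. Of the 15 epithelial markers 13 were higher in each of the 3, and their sum was 3469 to 6238 CPM against 178 to 279 CPM. Of the 13 fibroblast and mural markers 12 were higher and 1, Fn1, was lower in the 3. Fn1 was at 596 to 1132 CPM in the 3 against 1205 to 1929 CPM, and held most of the summed level in the 5. With Fn1 counted, the sums of this list overlapped, at 1604 to 2021 CPM against 1347 to 2101 CPM. Col1a1 of that list was at 128.7 CPM in KO1 and 80.7 and 79.4 CPM in WT1 and WT2, against 8.999 to 16.3 CPM. Of the 12 tissue macrophage markers 9 were lower in the 3, with sums of 10433 to 16890 CPM against 23076 to 25688 CPM. No marker of these 4 lists was at 0 in every library. Fewer cells of a type and less RNA per cell cannot be told apart in such libraries. The 3 and the 5 libraries are not groups of the study, and each genotype occurs in both. Tgfbr2, the targeted gene, was at 424, 576, 529 and 539 CPM in KO1 to KO4 and at 548, 474, 546 and 542 CPM in WT1 to WT4, so its gene total does not check the labels. Lyz2, which carries the Cre, was at 3440 to 5611 CPM in the 4 KO libraries and at 7285 to 13193 CPM in the 4 WT libraries, with no overlap.

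The upstream DNA of 3 members is shown because the results turn on them: Smurf1 was the member that passed the test of the genotypes, Smurf2 is its close relative, and Smad6 had the widest range between libraries. Windows hold 250 bases before the RefSeq start and 10 after it, 5′ to 3′ in GRCm38.p6, and all 3 genes lie on the minus strand. Capitals mark the letters CAGAC or their reverse complement GTCTG (the core bound by Smad3 and Smad4), the palindrome GTCTAGAC (a Smad-binding element selected in vitro), and GGCGCC (a GC-rich element that Smads also bind).
Smurf1, chr5:144965821-144966080: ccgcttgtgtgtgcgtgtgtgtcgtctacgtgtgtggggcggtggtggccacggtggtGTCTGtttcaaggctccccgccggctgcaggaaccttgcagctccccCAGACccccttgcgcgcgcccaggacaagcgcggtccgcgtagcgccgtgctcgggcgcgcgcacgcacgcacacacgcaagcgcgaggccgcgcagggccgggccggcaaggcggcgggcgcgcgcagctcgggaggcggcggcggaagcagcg
Smurf2, chr11:106920706-106920965: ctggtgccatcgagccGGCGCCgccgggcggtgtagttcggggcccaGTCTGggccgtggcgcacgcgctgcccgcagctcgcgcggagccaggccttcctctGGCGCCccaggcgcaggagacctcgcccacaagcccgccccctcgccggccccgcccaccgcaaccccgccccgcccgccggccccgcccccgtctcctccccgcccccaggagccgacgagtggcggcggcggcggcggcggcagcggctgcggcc
Smad6, chr9:64022050-64022309: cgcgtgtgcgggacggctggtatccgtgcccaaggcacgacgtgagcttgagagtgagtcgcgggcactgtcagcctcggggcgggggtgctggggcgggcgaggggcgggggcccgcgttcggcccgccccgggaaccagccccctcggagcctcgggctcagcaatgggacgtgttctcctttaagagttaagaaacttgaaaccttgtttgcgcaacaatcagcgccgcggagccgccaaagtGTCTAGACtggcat
The Smad6 window held the palindrome across its start, from position -4 to position 4 with the first transcribed base counted as 1. That palindrome was found in 0.177% of 32851 promoter windows of the same length. The Smurf1 window held CAGAC or its reverse complement 2 times and the Smurf2 window 1 time, and 44.0% of windows held it on either strand. GGCGCC occurred 2 times in the Smurf2 window and in 9.96% of windows. Both strands were searched, the palindrome and GGCGCC are their own reverse complements, and no matches overlapped. A match describes letters and not a bound site. RefSeq windows of 6 of the 9 members were looked at. Those of Smad2, Smad4 and Smad7 were left out, so whether they hold these letters was not tested.

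Smurf1, a HECT-type ubiquitin ligase best known for marking Smad1 and Smad5 for destruction, fell in Tgfbr2_KO. It was at 80.6, 81.3, 79.7 and 77.3 CPM in KO1 to KO4, against 101.8, 102.4, 100.6 and 101.8 CPM in WT1 to WT4. Every KO library lay below every WT library, and the gap between the genotypes was far wider than the spread within either. The mean was 79.7 ± 1.76 CPM in Tgfbr2_KO and 101.6 ± 0.77 CPM in WT (SD, n = 4 each), so Tgfbr2_KO held 78.4% of the WT level. The log2 fold change was -0.35 (95% interval -0.46 to -0.24 and SE 0.05, edgeR quasi-likelihood test, Benjamini-Hochberg adjusted p = 0.035 over 12750 genes). Smurf1 (ENSMUSG00000038780) lies on GRCm38 chromosome 5, 144876495 to 144965847, on the minus strand. It was the 1 of 9 members called in this comparison, and 0.298% of all tested genes were called in either direction (0.102% lower). It was also the 1 member whose KO libraries all lay below the WT libraries, as they did for 2.71% of tested genes.

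Smurf1 hardly differed between KO1, WT1 and WT2 and the other libraries of the same genotype. KO1 held 1.02 times the mean of KO2 to KO4, and WT1 and WT2 averaged 1.01 times the mean of WT3 and WT4. In a fit with a genotype effect in each set of libraries, the log2 fold change was -0.34 (SE 0.06, edgeR adjusted p = 0.00272) within KO1, WT1 and WT2 and -0.35 (SE 0.04, edgeR adjusted p = 1.56e-04) within the other 5. The difference between these fold changes was 0.01 (95% interval -0.15 to 0.17, edgeR adjusted p = 0.952). With the library set as a term in the fit the log2 fold change was -0.35 (edgeR adjusted p = 0.00124), and Smurf1 was again the 1 of 9 members called, where 16.5% of all tested genes were (7.89% lower). Leaving out any library other than KO1 ended the call over all 8 libraries (edgeR adjusted p = 0.0929 without WT1 to 0.347 without KO4) with log2 fold changes of -0.37 to -0.35, and without KO1 it held (edgeR adjusted p = 0.00591). The call also ended when WT3 and WT4 were counted as 1 library, KO4 was left out and the set was a term (edgeR adjusted p = 0.0557), with a log2 fold change of -0.37.

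**Figure D1:**
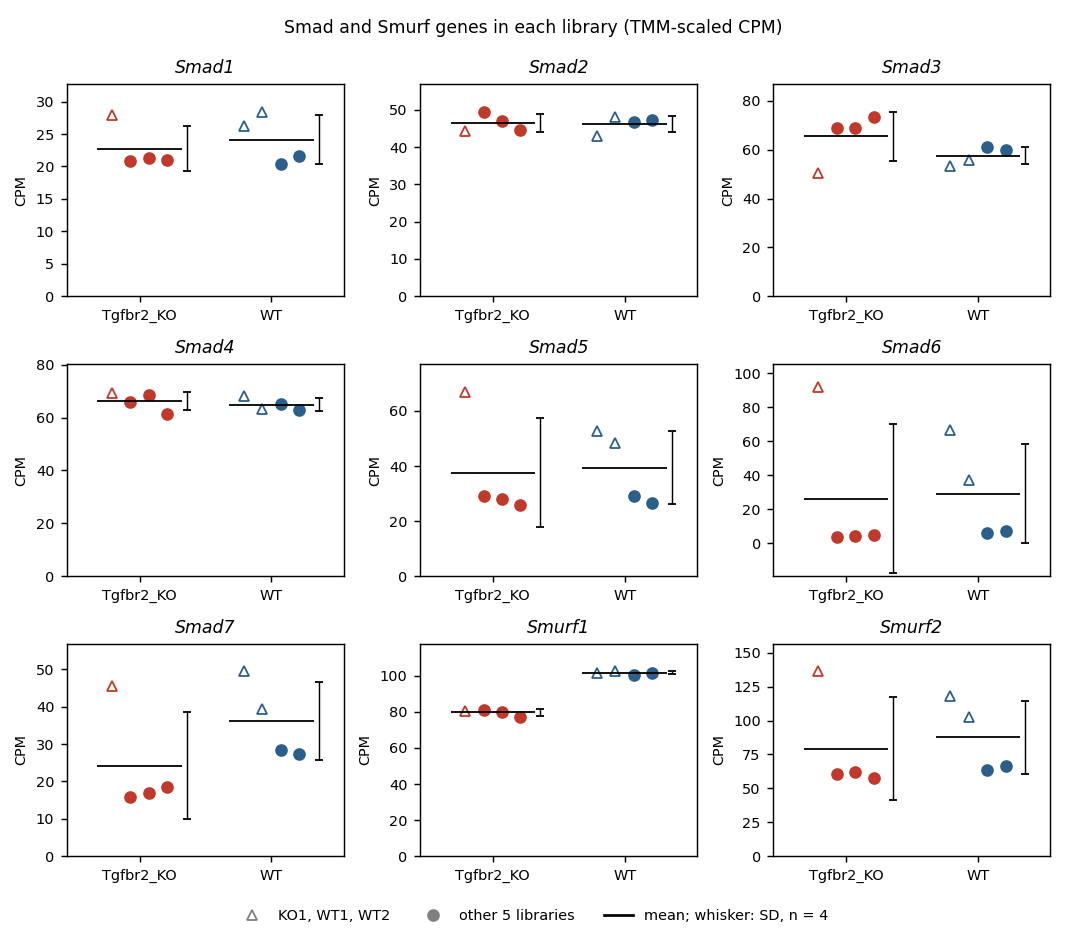
TMM-scaled CPM (y axis, linear) of the 9 genes in each of the 4 Tgfbr2_KO and 4 WT libraries, with open triangles for KO1, WT1 and WT2, filled circles for the other 5, lines for means and whiskers for SD. Smurf1 separates the genotypes, 77.3 to 81.3 CPM in Tgfbr2_KO against 100.6 to 102.4 CPM in WT. For Smad1, Smad5, Smad6, Smad7 and Smurf2 the triangles lie above the circles, and for Smad3 they lie below.

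Smurf2, the other Smurf ligase, which acts on Smads and on the TGF-β receptor, did not pass. It was at 136, 60.7, 62.4 and 58.0 CPM in KO1 to KO4, against 118, 103, 63.5 and 66.5 CPM in WT1 to WT4. The genotypes overlapped, and the high values were those of KO1, WT1 and WT2. The log2 fold change was -0.14 (95% interval -0.96 to 0.67, SE 0.35, edgeR adjusted p = 1.00). Within KO1, WT1 and WT2 it was 0.31 (SE 0.08, edgeR adjusted p = 0.022), where KO1 held 1.23 times the WT mean. The summed endothelial markers in KO1 were 1.67 times the mean of WT1 and WT2 and the epithelial markers also 1.67 times, and their part in the Smurf2 value was not tested. Within the other 5 libraries the log2 fold change of Smurf2 was -0.11 (SE 0.06, edgeR adjusted p = 0.234), and the fold changes of the sets differed by 0.42 (edgeR adjusted p = 0.0183).

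Smad2 and Smad3, the Smads that the TGF-β receptor activates, did not pass over all 8 libraries. Smad2 was at 44.2, 49.5, 47.0 and 44.7 CPM in KO1 to KO4, against 43.1, 48.0, 46.6 and 47.2 CPM in WT1 to WT4. Its libraries overlapped fully, and the log2 fold change was 0.00 (95% interval -0.14 to 0.15, SE 0.06, edgeR adjusted p = 1.00). Its 95% interval was -0.24 to 0.15 within KO1, WT1 and WT2 and -0.14 to 0.15 within the other 5 libraries.

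Smad3 was at 50.5, 68.9, 69.0 and 73.4 CPM in KO1 to KO4, against 53.4, 56.0, 61.2 and 59.9 CPM in WT1 to WT4. KO2 to KO4 lay above every WT library, and KO1 lay below every WT library. The pooled log2 fold change was 0.18 (95% interval -0.10 to 0.46, SE 0.12, edgeR adjusted p = 0.772). Within the 5 other libraries Smad3 rose by 0.22 on the log2 scale (SE 0.05, edgeR adjusted p = 0.00931), and KO2 to KO4 averaged 116% of WT3 and WT4. Within KO1, WT1 and WT2 the log2 fold change was -0.12 (SE 0.07, edgeR adjusted p = 0.284), and the sets differed by -0.33 (95% interval -0.53 to -0.14, edgeR adjusted p = 0.0233). Smad3 was lower in KO1, WT1 and WT2 than in each of the other 5 libraries, as were 23.1% of tested genes, and the summed tissue macrophage markers were lower there too. Their part in the Smad3 values was not tested.

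Smad4, the partner that both branches share, was at 69.5, 65.9, 68.4 and 61.5 CPM in KO1 to KO4, against 68.3, 63.1, 65.0 and 63.0 CPM in WT1 to WT4. Neither genotype nor library set separated its values. The log2 fold change was 0.03 (95% interval -0.11 to 0.17, SE 0.06, edgeR adjusted p = 1.00). Smad2, Smad4 and Smurf1 were the 3 members whose libraries overlapped between KO1, WT1 and WT2 and the other 5.

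Smad1 and Smad5, the Smads of the BMP branch, were higher in KO1, WT1 and WT2 than in each other library and did not pass between the genotypes over all 8. Smad1 was at 27.9, 20.8, 21.4 and 21.01 CPM in KO1 to KO4, against 26.2, 28.5, 20.4 and 21.5 CPM in WT1 to WT4. The log2 fold change of Smad1 was -0.09 (95% interval -0.43 to 0.26, SE 0.15, edgeR adjusted p = 1.00) and 0.01 with the set as a term (95% interval -0.12 to 0.14, edgeR adjusted p = 0.906). Smad5 was at 67.1, 29.1, 28.2 and 25.7 CPM in KO1 to KO4, against 52.9, 48.4, 29.3 and 26.7 CPM in WT1 to WT4. KO1 had the highest Smad5 level of the 8, and WT1 and WT2 came next. The log2 fold change of Smad5 was -0.07 (95% interval -0.97 to 0.83, SE 0.38, edgeR adjusted p = 1.00) over all libraries and -0.01 (95% interval -0.18 to 0.16, SE 0.08, edgeR adjusted p = 0.957) within the 5 other libraries. Within KO1, WT1 and WT2 Smad5 rose by 0.41 (SE 0.09, edgeR adjusted p = 0.0114), beside the 1.67-fold higher endothelial sum in KO1, whose part was not tested. The fold changes of the sets differed by 0.41 (edgeR adjusted p = 0.0376).

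**Figure D2:**
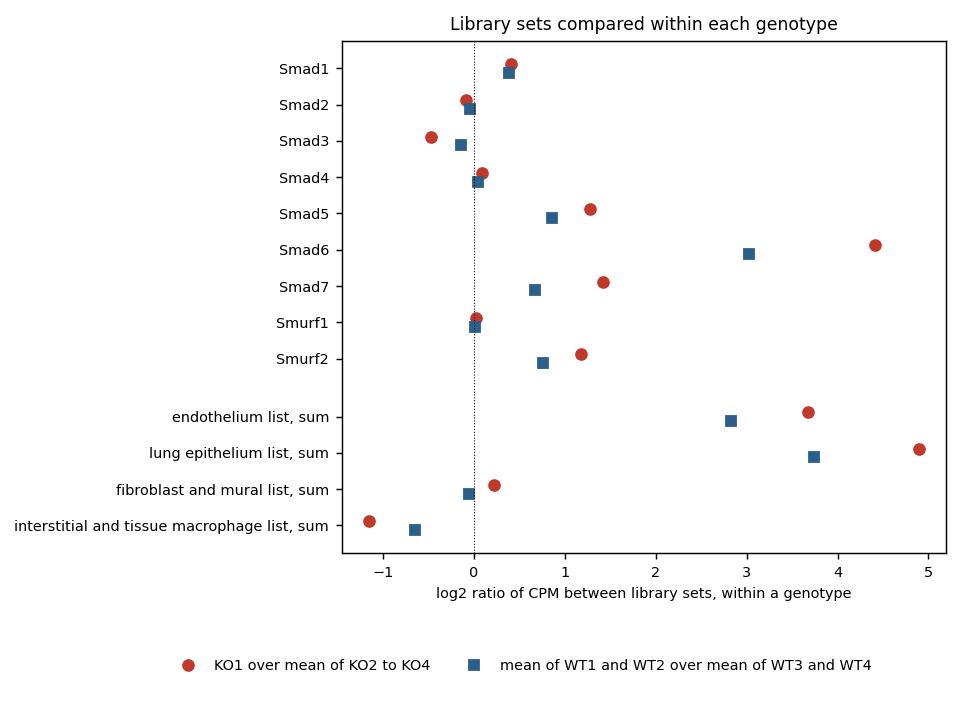
Log2 ratio (x axis) of CPM between library sets within a genotype, KO1 over the mean of KO2 to KO4 (circles) and the mean of WT1 and WT2 over the mean of WT3 and WT4 (squares), for the 9 genes and for the summed marker lists. Smad6 (4.42 in Tgfbr2_KO and 3.02 in WT) lies between the endothelial sum (3.67 and 2.83) and the epithelial sum (4.90 and 3.75), while Smad2, Smad4 and Smurf1 lie between -0.09 and 0.09.

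The inhibitory Smads had the widest spread of the family. Smad6, which mainly restrains BMP signals and is known to be high in endothelium, was at 91.6, 3.71, 4.33 and 4.84 CPM in KO1 to KO4, against 66.7, 37.2, 5.80 and 7.003 CPM in WT1 to WT4. KO1, WT1 and WT2 stood far above the other 5 libraries. KO1 was 21.3 times the mean of KO2 to KO4, and WT1 and WT2 averaged 8.12 times the mean of WT3 and WT4. The summed endothelial markers differed by 12.7 and 7.10 times in the same comparisons and the summed epithelial markers by 29.8 and 13.4 times. Pecam1, an endothelial adhesion molecule, was at 726 CPM in KO1 and 467 and 395 CPM in WT1 and WT2, against 25.1 to 35.1 CPM. The part of endothelial and epithelial transcripts in the Smad6 values was not tested. Over all 8 libraries the log2 fold change of Smad6 was -0.15 with a 95% interval of -3.26 to 2.95 (edgeR adjusted p = 1.00), so that a difference of even several-fold was not detectable.

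Within the 5 other libraries, Smad6 was lower in each of KO2 to KO4 (89, 85 and 88 counts) than in WT3 and WT4 (113 and 249 counts). KO2 to KO4 averaged 4.29 ± 0.57 CPM (SD, n = 3) and WT3 and WT4 6.40 ± 0.85 CPM (SD, n = 2), a ratio of 67.1%. Whether this passed depended on the fit. The fit with a genotype effect in each set, which shares its spread with KO1, WT1 and WT2, gave -0.61 (SE 0.36, edgeR adjusted p = 0.274). A fit of the 5 libraries alone gave -0.60 (SE 0.16, edgeR adjusted p = 0.00663). Summed endothelial markers in these libraries were at 437.6, 502.2 and 471.2 CPM in KO2 to KO4 and at 506.9 and 501.5 CPM in WT3 and WT4, with an overlap. Summed epithelial markers were at 178 to 237 CPM in KO2 to KO4 and at 277 and 279 CPM in WT3 and WT4, with none. Single epithelial markers did not all follow the sum. Scgb1a1 (10.3 to 21.6 against 6.05 and 5.03 CPM) and Scgb3a2 (0.25 to 0.56 against 0.21 and 0.14 CPM) were higher in KO2 to KO4, and Sftpb among others overlapped. The part of endothelial and epithelial transcripts was not tested. Within KO1, WT1 and WT2 the log2 fold change of Smad6 was 0.83 (SE 0.31, edgeR adjusted p = 0.124), with KO1 at 1.76 times the WT mean.

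Smad7, which blocks the TGF-β receptor and is itself a target of Smad3 and Smad4, fell within the 5 other libraries. It was at 45.7, 15.9, 17.0 and 18.5 CPM in KO1 to KO4, against 49.4, 39.3, 28.4 and 27.5 CPM in WT1 to WT4. KO2 to KO4 lay well below WT3 and WT4, while KO1 lay between WT1 and WT2. KO2 to KO4 averaged 17.1 ± 1.34 CPM (SD, n = 3) and WT3 and WT4 27.9 ± 0.66 CPM (SD, n = 2), so the KO libraries held 61.3% of the WT level. The log2 fold change there was -0.71 (SE 0.10, edgeR adjusted p = 4.82e-04). Within KO1, WT1 and WT2 it was 0.05 (95% interval -0.24 to 0.33, SE 0.13, edgeR adjusted p = 0.842), and the sets differed by 0.75 (95% interval 0.39 to 1.12, edgeR adjusted p = 0.00957). Within these 5 libraries the summed markers of 8 of 10 cell type lists also separated the genotypes, beside Smad7, Smad3 and Smurf1 alike. The sums were lower in KO2 to KO4 for 5 lists, among them tissue macrophages, alveolar macrophages, neutrophils and epithelium. The tissue macrophage sum was 23076 to 23391 CPM in KO2 to KO4, against 25119 and 25688 CPM in WT3 and WT4. Its members went both ways, with Apoe lower (5232 to 6137 against 9183 and 9476 CPM) and Mrc1 higher (2841 to 2867 against 1431 and 1407 CPM). The alveolar sum was 508 to 546 CPM in KO2 to KO4, against 1410 and 1411 CPM in WT3 and WT4. The neutrophil sum was 141 to 155 CPM against 202 and 207 CPM. Most of the alveolar gap lay in Itgax (371 to 387 against 900 and 892 CPM) and Chil3 (15.8 to 17.6 against 348 and 347 CPM). Siglecf, Car4, Plet1 and Ear1 were lower too, Marco was higher, and Ear2, Pparg and the rest of that list overlapped. For 3 lists the sums were higher, dendritic cells among them. The dendritic sum was 80.0 to 81.8 CPM in KO2 to KO4, against 48.1 and 48.2 CPM in WT3 and WT4. Of that list Cd209a (29.6 to 31.7 against 4.62 and 5.57 CPM), Zbtb46, Ccr7 and Itgae were higher. Clec9a was lower (4.49 to 5.57 against 14.2 and 12.4 CPM), and Flt3 and Xcr1 overlapped. The part of these cell types in the results within these libraries was not tested. Over all 8 libraries Smad7 did not pass (-0.57, SE 0.39, edgeR adjusted p = 0.790), nor with the set as a term (-0.42, SE 0.15, edgeR adjusted p = 0.109). Without KO1 the pooled value was -1.08 (edgeR adjusted p = 0.0399). Smad7 was higher in KO1, WT1 and WT2 than in each of the other 5, by 2.67 times in Tgfbr2_KO and 1.59 times in WT, and so were the endothelial and epithelial sums, whose part was not tested.

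**Figure D3:**
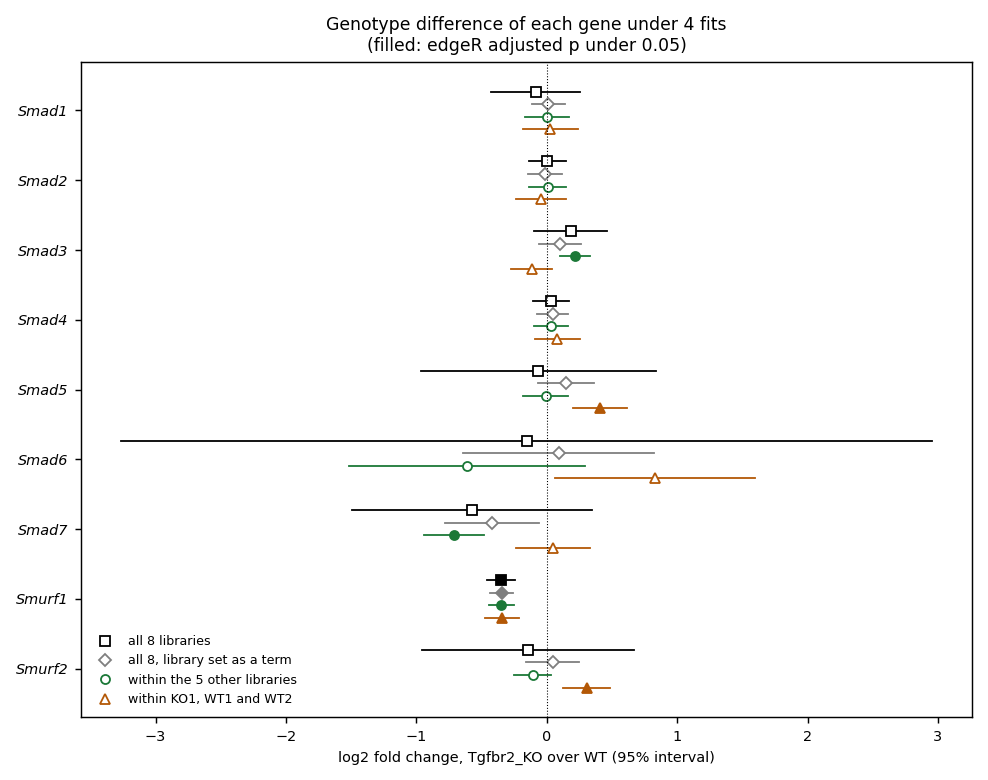
Log2 fold change of Tgfbr2_KO over WT (x axis) with its 95% interval for each of the 9 genes, over all 8 libraries, with the library set as a term, and within each set of libraries, with filled symbols where the edgeR adjusted p was under 0.05. Smurf1 lies between -0.35 and -0.34 in all 4 fits, while Smad7 is at -0.71 within the 5 other libraries and at 0.05 within KO1, WT1 and WT2.

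Counted together, 5 of 9 members (Smad1, Smad5, Smad6, Smad7 and Smurf2) were higher in KO1, WT1 and WT2 than in each of the other 5 libraries, and 28.1% of tested genes were. Within the 5 other libraries 3 of 9 members were called (Smad3 higher, Smad7 and Smurf1 lower), where 30.7% of tested genes were (15.8% higher and 14.9% lower), near the members' share. A fit of those 5 libraries alone called 4 of 9, with Smad6 added, and 38.5% of genes (19.7% higher and 18.7% lower). KO2 to KO4 all lay below WT3 and WT4 for 30.1% of genes. Within KO1, WT1 and WT2, where KO1 is the single KO library and its spread is taken from the rest, 3 of 9 were called (Smad5 and Smurf2 higher, Smurf1 lower) and 21.2% of genes (11.7% higher and 9.51% lower). A fit of those 3 libraries alone called 0 of 9 and 5.11% of genes. The test of the difference between the sets called 4 of 9 (Smad5, Smad7 and Smurf2 above 0, Smad3 below) and 18.9% of genes (8.84% above 0 and 10.1% below). Without KO1, 3 of 9 were called (Smad3 higher, Smad7 and Smurf1 lower) and 6.74% of genes (4.85% higher and 1.89% lower). Over all 8 libraries the median log2 fold change was -0.09 for the 9 members and -0.01 for all tested genes.

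Levels of different genes were compared as CPM per kilobase, using the joined length of exons of protein-coding transcripts tagged basic in GENCODE M21. In the 5 other libraries Smad4 (17.2 to 19.1 CPM per kilobase) and Smurf1 (14.2 to 18.8) were highest. Smad3 was at 11.8 to 14.4 and Smurf2 at 10.9 to 12.5 CPM per kilobase, and in KO4 Smad3 (14.4) lay above Smurf1 (14.2). Smad7 (3.62 to 6.49), Smad2 (5.20 to 5.76), Smad1 (3.95 to 4.16) and Smad5 (3.59 to 4.08) lay lower, and the range of Smad7 overlapped those of Smad2, Smad1 and Smad5. The ranges of Smad4 and Smurf1 overlapped too, as did those of Smurf1 and Smad3, those of Smad3 and Smurf2 and those of Smad1 and Smad5. Smad6 was lowest at 1.25 to 2.36 CPM per kilobase. In KO1, WT1 and WT2 Smad6 was instead at 30.8, 22.4 and 12.5 CPM per kilobase, and Smurf2 at 25.6, 22.1 and 19.3. Counts of the 9 genes were whole to within 0.01 in 72 of 72 values. No gene of the table overlapped a member in the annotation.

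For each member, the tested genes with the most similar profile of log2 CPM over the 8 libraries were found by Pearson's correlation, which mixes genotype, library set and depth. Smurf1 was most like Ldlrad4 (r = 0.99), a membrane protein that keeps Smads from the receptor, and Zfp385c (r = 0.98). Zfp385c was near the floor, at 0.30 to 0.36 CPM in KO1 to KO4 and 0.92 to 1.18 CPM in WT1 to WT4. It passed the filter on low counts through its WT libraries alone, so its likeness to Smurf1 is partly set by that filter. Ldlrad4 was at 21.7, 21.7, 20.5 and 19.1 CPM in KO1 to KO4, against 28.6, 29.4, 27.9 and 27.2 CPM in WT1 to WT4. Both Smurf1 and Ldlrad4 were thus lower in every KO library and nearly level across the sets. Smad7 was most like Map4k3 and Nt5e (r = 0.99 each). Smad6 was most like Arl15 and the caveolin Cav2 (r = 0.998 each), and Smurf2 like Cyb5r3 and Adamts15 (r = 0.998 each). Smad5 was most like Gcc2 (r = 0.998) and Stard10 (r = 0.997), and Smad1 like Polg2 and Tmem252 (r = 0.99 each). Smad3 was most like Tnip2 and Eif1 (r = 0.99 each). The flat profiles of Smad2 and Smad4 had their closest matches at lower values. These were Il27 and Zswim7 (r = 0.93 each) for Smad2, and Oard1 (r = 0.94) and Ncor1 (r = 0.93) for Smad4. Il27 (0.18 to 1.33 CPM over the 8 libraries) and Zswim7 (1.12 to 3.83 CPM) had few counts. Among all tested genes, matches of this size to a flat profile may be noise.

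Among the other genes of the pathway, Pmepa1 fell over all 8 libraries and more genes passed once the library set was a term. Of 87 tested genes in 6 lists, which hold Smad6 and Smad7 too, 1 was called over all 8 libraries, Pmepa1, which captures receptor-activated Smads. It was at 49.0, 60.9, 60.1 and 58.2 CPM in KO1 to KO4, against 107, 109, 148 and 141 CPM in WT1 to WT4 (edgeR adjusted p = 0.0314, log2 fold change -1.14, SE 0.14). This call ended when any library other than KO1 was left out (edgeR adjusted p = 0.0578 without WT1 to 0.223 without KO4), with log2 fold changes of -1.21 to -1.06, and held without KO1 (edgeR adjusted p = 0.00699). Adding the set to the fit, 14 of these 87 rose while 11 fell, 28.7% against 16.5% of all tested genes, with a median log2 fold change of 0.08 against 0.03. The values that follow are from that fit.

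Of 16 tested anchors, phosphatases, transport factors and membrane inhibitors 6 rose and 4 fell (median 0.11). Pmepa1 changed by -1.22 (edgeR adjusted p = 3.37e-05) and Ldlrad4 by -0.42 (edgeR adjusted p = 0.00302). The endosomal Smad anchor Zfyve16 rose by 0.36 (edgeR adjusted p = 0.0059), Fkbp1a, which holds type I receptors silent, by 0.36 (edgeR adjusted p = 0.00411) and the Smad phosphatase Ctdsp2 by 0.23 (edgeR adjusted p = 0.0156). Of 16 tested Smad targets 1 rose and 5 fell (median 0.02). Pmepa1 and Ldlrad4 are in this list too. Also among them were the matrix protein Tgfbi (-0.91, edgeR adjusted p = 1.64e-04) and Skil, which binds and silences Smads (-0.53, edgeR adjusted p = 0.0223).

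Of 15 tested nuclear partners and co-repressors 2 rose and 3 fell (median 0.06). Runx3, a transcription factor that binds Smads, changed by -1.08 (edgeR adjusted p = 9.98e-04) and the co-repressor Ski by -0.21 (edgeR adjusted p = 0.0196). Jun had 0.42 (edgeR adjusted p = 0.0172) and Zeb1 0.44 (edgeR adjusted p = 0.0134). Of 18 tested ubiquitin ligases and deubiquitinases 1 rose and 0 fell (median -1.10e-05). It was Wwp1, a HECT ligase related to the Smurfs, at 251, 412, 359 and 385 CPM in KO1 to KO4 and 246, 196, 148 and 147 CPM in WT1 to WT4 (0.97, SE 0.23, edgeR adjusted p = 0.0276). Its log2 fold change was 1.39 in a fit of the 5 other libraries alone and 0.19 within KO1, WT1 and WT2, where it did not pass (edgeR adjusted p = 0.366). Usp11, a deubiquitinase of the receptor, had 0.32 (edgeR adjusted p = 0.0509), Trim33 0.15 (edgeR adjusted p = 0.063) and Cyld -0.16 (edgeR adjusted p = 0.0672).

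Of 12 tested receptors 1 rose and 1 fell (median -0.02). Tgfbr1, the partner of the targeted receptor, was at 194, 285, 304 and 295 CPM in KO1 to KO4 and at 405, 507, 675 and 647 CPM in WT1 to WT4 (-1.19, SE 0.08, edgeR adjusted p = 1.76e-04). The co-receptor Tgfbr3 rose by 0.84 (edgeR adjusted p = 0.00542), while Acvr1 had -0.17 (edgeR adjusted p = 0.0681) and Acvr2b 0.22 (edgeR adjusted p = 0.282). Of 13 tested ligands and their handling genes 3 rose and 1 fell (median 0.47). Tgfb3 fell by 1.11 on the log2 scale (edgeR adjusted p = 0.00853). Lrrc32, which displays latent TGF-β on the cell surface, rose by 0.63 (edgeR adjusted p = 0.00137), Bmp1, a protease of matrix proteins, by 0.63 (edgeR adjusted p = 0.00311) and Gdf15 by 0.47 (edgeR adjusted p = 0.0408). Levels of Tgfbr3, Zeb1, Bmp1, Jun, Fkbp1a and Lrrc32 were also higher in KO1, WT1 and WT2 than in each other library. Lrrc32 had the narrowest gap of these in CPM, with 34.8 CPM in WT2 and 28.2 CPM in KO4. Tgfbr3 was at 82.4 CPM in KO1 and 53.3 and 43.2 CPM in WT1 and WT2, against 7.96 to 11.8 CPM in KO2 to KO4 and 5.03 and 5.23 CPM in WT3 and WT4. The part of endothelial and epithelial transcripts in their values was not tested.

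**Figure D4:**
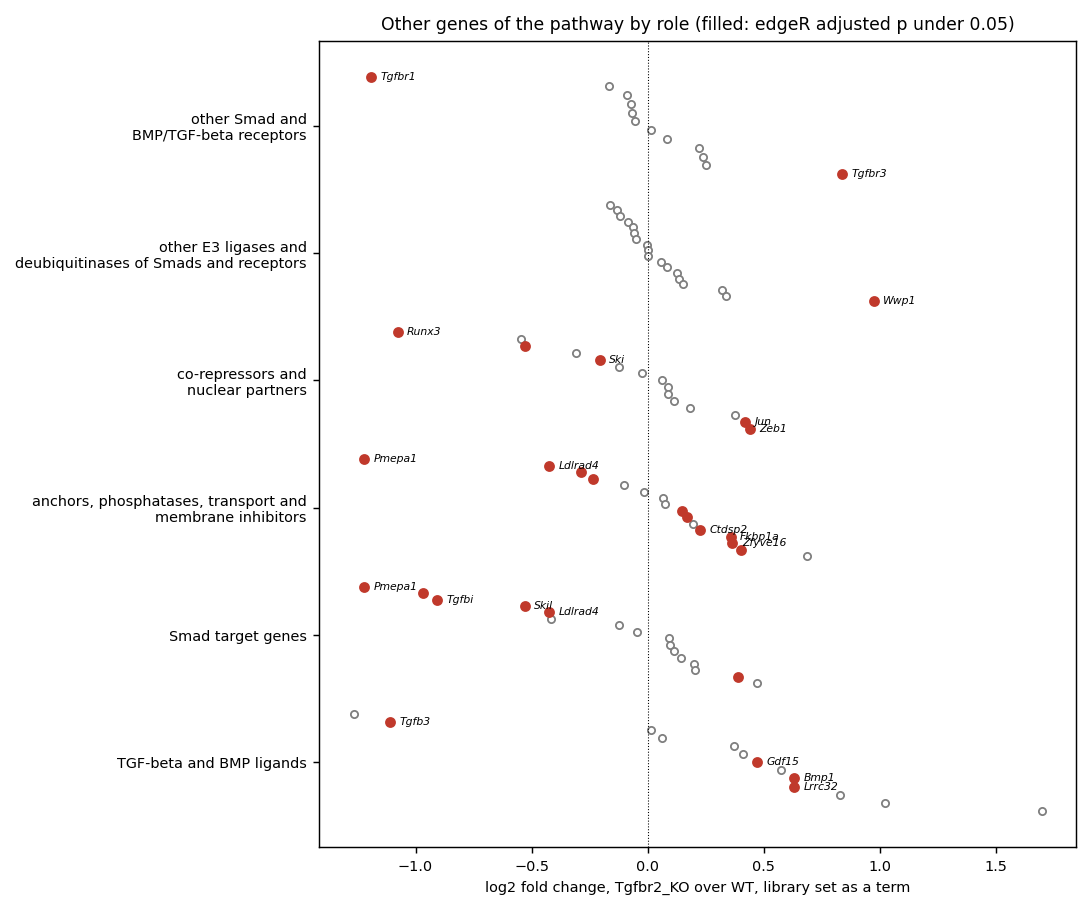
Log2 fold change of Tgfbr2_KO over WT with the library set as a term (x axis) for the tested genes of 6 lists of the pathway (rows), with filled circles where the edgeR adjusted p was under 0.05. Pmepa1 (-1.22), Tgfbr1 (-1.19) and Tgfb3 (-1.11) lie to the left of 0, and Wwp1 (0.97) and Tgfbr3 (0.84) to the right.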

How the data were processed

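The authors deposited estimated counts per gene, made with salmon and merged into 1 table per the file headers, whose totals differ between libraries. Whole numbers made up 81.8% to 84.8% of each library. Per the submitters' processing notes the build was GRCm38 and DESeq2 1.40.1 was used. Salmon version, strand setting and annotation remain not given in the sources used here.

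Expected counts were rounded to whole numbers. R 4.3.3 ran edgeR 4.0.16 for the main test, and DESeq2 1.42.0 and limma 3.58.1 served as alternatives. The filter was filterByExpr with a count of at least 10 and a total of at least 15, and scaling was by TMM. The genotypes were compared with the robust quasi-likelihood test over all tested genes. Adjustment was Benjamini and Hochberg's, and calls needed an adjusted p under 0.05. Fits with the library set as a term, or with its interaction with genotype, used all 8 libraries. Log2 CPM used a prior count of 2. The fits without a covariate and with the set as a term were tested on simulated data, with a set effect equal in both genotypes. The fit with the interaction and the other fits were not.

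The members, lists, library sets and tests were chosen with earlier results of these data known. The genes named were the members, Tgfbr2 and Lyz2, for each list those past the threshold and up to 4 more with the smallest adjusted p with the set term, the 2 genes most like each member, and Sftpc, Pecam1 and Col1a1. Predicted genes were passed over, and 1 gene that the rule names is not reported here. Smad9 was named after its values were seen. Alternatives changed scaling, filter, tool, design and samples. WT3 and WT4 differed by 1.86 times counting noise (median chi-square), against 2.08 to 3.18 among KO2 to KO4 and 4.57 for WT1 and WT2, and were kept as separate libraries. Promoter sequences are RefSeq's, in GRCm38.p6.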

Additional observations from a re-analysis of the deposited data

Results flagged for a closer look

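In KO1, 5 members stood far above KO2 to KO4, past the 95% limit of Dixon's test for the gap to the next library as a share of the range. They were Smad1 at 27.9 CPM, Smad5 at 67.1 CPM, Smad6 at 91.6 CPM, Smad7 at 45.7 CPM and Smurf2 at 136 CPM. Of 18 sets of 4 libraries looked at, 5 were picked out, all for KO1. This count cannot be compared with the rate of about 1 in 20 that chance gives. KO1 was already known as the single KO library in the set with WT1 and WT2, where these 5 members were higher. In WT the high values were those of both WT1 and WT2, so no single WT library stood apart. These members share the library, so they are not separate events. KO1 also had the highest endothelial and epithelial sums of the 8 libraries.

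For 4 members the log2 fold change within KO1, WT1 and WT2 differed from that within the 5 other libraries in a test of the interaction. The difference was -0.33 for Smad3, 0.41 for Smad5, 0.75 for Smad7 and 0.42 for Smurf2. Each rests on KO1 as the single KO library of its set.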

How the results depend on the processing

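Over all 8 libraries 1 member and 38 genes in all were called. Without a filter 0 members and with limma voom 0 members passed. DESeq2's test called 527 genes and 12 pathway genes, and DESeq2 size factors 2 pathway genes. The set term gave 2101 genes and 25 pathway genes. The 5 other libraries alone gave 4 members, 4856 genes and 51 pathway genes, and the fit with an effect in each set 3 members, 3911 and 41. KO1, WT1 and WT2 alone gave 0 members, 716 and 10, and within the joint fit 3 members, 2704 and 23. With WT3 and WT4 summed, KO4 left out and the set term, 0 members, 185 genes and 5 pathway genes passed. Leaving out each library gave 0 to 3 members, 0 to 860 genes and 0 to 14 pathway genes, where 807 to 3476 genes had an unadjusted p under 0.05; only the fit without KO1 made calls.

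Whether the replicate numbers pair the libraries is not given. Deviations from the genotype means of same-numbered libraries correlated at 0.87, -0.79, 0.69 and 0.75 for numbers 1 to 4, and those of KO1 and WT2 at 0.88. The sign followed whether both libraries lay in the same set, so these correlations cannot tell whether the numbers mark pairs. The replicate block gave 0 members, 0 genes (1479 at an unadjusted p under 0.05) and 0 pathway genes, and with the set term 0 members, 109 and 4. Pmepa1 did not pass with the block (edgeR adjusted p = 0.105). Smurf1 was -0.35 with the block (edgeR adjusted p = 0.174) and -0.36 with block and set.

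Smurf1 kept its direction in all 20 alternatives with an adjusted p and passed in 7. It did not pass without the filter (-0.35), with limma voom (-0.35) or with WT3 and WT4 summed (-0.37). In KO1, WT1 and WT2 alone it was -0.41 and was not called, and it was -0.37 to -0.35 without single libraries. Its exact two-sided permutation test gave p = 0.0286, the smallest that 70 arrangements allow, and the other 8 members had 0.143 to 0.943, unadjusted. Smad3 passed at 0.22 in the 5 other libraries in either fit, and was -0.18 in KO1, WT1 and WT2 alone and -0.12 in the joint fit (0.12 to 0.29 without single libraries). Smad7 passed at -0.71 in the 5 in either fit, was 0.046 in the joint fit within the 3, and -1.08 to -0.39 without single libraries. Smad6 passed at -0.60 in the 5 alone. It was 0.092 with the set term, 0.14 with WT3 and WT4 summed, 0.76 in the 3 alone, 0.83 within them in the joint fit, and -2.76 to 0.65 without single libraries. Sign changes without a call were as follows. Smad1 was 0.013 with the set term, 0.040 with block and set, 0.0029 in the 5 alone, 0.0017 and 0.028 within the sets, and -0.20 to 0.0033 without single libraries. Smad2 was -0.0029 with DESeq2 size factors, -0.0058 with DESeq2, -0.012 with the set term, -0.0097 with block and set, -0.11 in the 3 alone, -0.032 with WT3 and WT4 summed, -0.045 within the 3, and -0.041 to 0.025 without single libraries. Smad4 was -7.75e-04 to 0.058 without single libraries. Smad5 was 0.15 with the set term, 0.084 with block and set, 0.34 in the 3 alone, 0.20 with WT3 and WT4 summed, 0.41 within the 3 (passing), and -0.51 to 0.11 without single libraries. Smurf2 was 0.045 with the set term, 0.24 in the 3 alone, 0.078 with WT3 and WT4 summed, 0.31 within the 3 (passing), and -0.54 to 0.032 without single libraries. The cause of these changes was not tested.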

Other observations

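Smad9, the remaining Smad of the BMP branch, did not pass the filter on low counts and was not tested. It had 195, 10, 6 and 6 counts in KO1 to KO4 and 103, 80, 3 and 7 counts in WT1 to WT4, which is 6.45, 0.42, 0.31 and 0.33 CPM against 6.09, 3.51, 0.15 and 0.20 CPM. Like Smad6, it was higher in KO1, WT1 and WT2 than in each other library, as were 28.1% of tested genes. The surfactant gene Sftpc was at 2815 CPM in KO1 and 1780 and 1593 CPM in WT1 and WT2, against 67.9 to 103 CPM. Its part in the Smad9 values was not tested.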
